A study of Mus musculus with 8 samples.

Results

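Integrins are the receptors by which cells hold on to the extracellular matrix, and 10 of their subunit genes were followed through the RNA-seq of JUN TetON ESCs treated with bromodomain inhibitors. The 10 genes (*Itga2*, *Itga3*, *Itga5*, *Itga6*, *Itga7*, *Itgav*, *Itgb1*, *Itgb3*, *Itgb4* and *Itgb5*) were taken by name from a table of 50600 gene rows, where each had 1 row. The names themselves were chosen with earlier results of these data known, so the list is not blind to the values. JUN TetON ESCs are mouse embryonic stem cells that carry a doxycycline-inducible JUN, a transcription factor of the AP-1 family, and they were made on the OG2 background, of mixed 129SVJ, C57B6 and CBA strains. All 8 libraries came from these cells with 2 μg/ml doxycycline, so JUN was induced in every group, the solvent group included, and no uninduced group was compared here. The 4 groups received DMSO (the solvent), PFI-3 (a compound that binds the bromodomain of BRG1), BI-9564 (a compound that binds the bromodomains of BRD7 and BRD9) or both compounds (P+B), with 2 libraries each. The labels give 6 h of treatment. The RNA-seq is also described as 8 h of JUN induction with 6 h of compound. In other experiments with these cells, counts of colonies and qPCR, the dose was 30 μM for each compound alone. P+B held 15 μM of each in the colony experiments, and no separate dose is given for P+B in the qPCR. The dose of each compound in the P+B libraries is not settled, so P+B is compared with the single compounds only as labelled. The cells were grown without feeders in 2i/LIF medium, and the sources used here do not say whether the 2 libraries of a group came from separate cultures, or whether the cells were 1 clone. The p-values therefore measure only the spread between these libraries.

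An integrin is a pair of an alpha and a beta chain that spans the membrane, and the pair decides which matrix protein is bound. The chain of *Itgb1* pairs with those of *Itga2*, *Itga3*, *Itga5*, *Itga6*, *Itga7* and *Itgav*, while those of *Itgb3* and *Itgb5* pair with *Itgav* and that of *Itgb4* pairs with *Itga6*. Inside the cell, talin and kindlin bind the beta chain and switch the receptor on, and adaptors and kinases carry the signal to the actin cytoskeleton. Embryonic stem cells use laminin and fibronectin receptors to hold on to their substrate.

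Promoter windows of the subunit genes are shown first, as a description of their sequence. RefSeq windows on GRCm38.p6, from 250 bases before to 50 bases after an annotated start, were held for 6 of the 10 genes. There were 7 windows in all because *Itga3* had 2 starts, and none for *Itga6*, *Itga7*, *Itgb3* and *Itgb4*. The GC box that Sp1 family factors bind, searched as GGGCGG on both strands, was in 7 of 7 windows and in 35.7% of all 32851 windows. Besides *Itga3* and *Itga5*, these are the windows of *Itga2*, *Itgav*, *Itgb1* and *Itgb5*, which were not called lower with P+B. In *Itga2* and *Itgav* the box lay after the start, from base 3 and base 8. The GC content of the 7 windows was between 52.3% and 67.3%, and the median of all windows was 52.7%. The parts before the transcript are printed 5′ to 3′ on the gene's strand for *Itga3* and *Itga5*, which fell with P+B, and for *Itgb5*, which differed little between groups. They lie at chr11:95076802-95076964 (minus strand, bases −250 to −88 from the start, up to the GENCODE gene boundary), chr15:103366792-103367041 (minus strand) and chr16:33829415-33829664 (plus strand), and capitals mark the GC box, which reads CCGCCC where it lies on the other strand.
Itga3: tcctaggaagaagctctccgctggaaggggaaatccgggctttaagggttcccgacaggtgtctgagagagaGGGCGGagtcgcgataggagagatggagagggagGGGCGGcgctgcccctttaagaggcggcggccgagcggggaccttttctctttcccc
Itga5: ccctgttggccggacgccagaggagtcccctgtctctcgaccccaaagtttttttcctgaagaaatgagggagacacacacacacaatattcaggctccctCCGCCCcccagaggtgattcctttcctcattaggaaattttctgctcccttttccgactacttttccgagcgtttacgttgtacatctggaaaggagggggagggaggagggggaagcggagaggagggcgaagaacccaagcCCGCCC
Itgb5: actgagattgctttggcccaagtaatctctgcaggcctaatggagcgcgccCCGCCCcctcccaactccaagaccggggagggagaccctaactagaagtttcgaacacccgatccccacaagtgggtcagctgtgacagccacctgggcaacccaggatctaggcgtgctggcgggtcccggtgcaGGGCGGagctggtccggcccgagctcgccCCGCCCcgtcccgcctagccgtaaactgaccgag
These stretches held 2, 2 and 3 GC boxes, and the part of the motif in the values was not tested.

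The pattern TGANTCA, a loose form of the AP-1 motif that takes any base in the middle, reads the same on both strands. It was in 1 of the 7 windows and in 7.81% of all windows. The match, TGAATCA, was at base 13 of the second *Itga3* start, inside an exon of the gene. Capitals mark it within the printed stretch, chr11:95069169-95069197 (minus strand), and whether AP-1 binds it was not tested.
Itga3 match: gggctggtgccTGAATCActggcttgctc
A match describes letters in a window, and a window without one says only that these letters were not in it.

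The deposited values are TPM, which is scaled by transcript length, so levels can be set side by side between genes. They had been made whole numbers by the authors, and each library summed to between 991574 and 991897. TPM keeps no read number, so depth and counting error are unknown. Over the tested genes, log2 levels of the 2 libraries of a group correlated with Pearson's r of 0.964 to 0.971 and differed by a median of 0.175 to 0.193. Markers of ES cells were measured in all 8 libraries: 10 of 10 passed the filter on low values, with summed levels of 3378 to 5302. Of 10 fibroblast markers, which would mark feeder cells, 5 were at 0 in every library and the summed level was 2 to 9. Trophoblast markers summed to 19 to 28, with 1 of 7 at 0 in every library. The primitive endoderm markers summed to 471 and 616 in DMSO, 423 and 514 in PFI-3, 367 and 491 in BI-9564, and 336 and 405 in P+B, with 4 of 9 at 0 in every library. Nearly all of that sum was *Sparc*, a matrix protein that other cells make too, and its part in the values of the integrin chains was not tested. In bulk RNA, fewer cells of a type and less RNA per cell cannot be told apart.

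Of the 10 chains, *Itgb1* and *Itga6* had the highest levels and *Itga2* was not detected. With DMSO the mean level was 200.5 for *Itgb1* and 189.0 for *Itga6*, which do not differ beyond their spread (200 and 201 against 201 and 177). Next came *Itga5* at 82.5 and *Itga3* at 68.0, whose libraries overlapped (71 and 94 against 61 and 75). *Itgav* at 47.0 and *Itgb5* at 37.5 followed, with *Itgav* at 43 and 51 and *Itgb5* at 34 and 41. *Itga7* at 11, *Itgb4* at 7.0 and *Itgb3* at 4.0 were low. Among the 10222 tested genes, 92.4% had a lower DMSO level than *Itgb1*, 92.0% a lower level than *Itga6*, and 19.1% a lower level than *Itga7*. *Itga2*, the alpha chain of a collagen and laminin receptor (chr13:114833081-114932100, minus strand), was listed at 0 in all 8 libraries.

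With P+B, 4 alpha chains fell: *Itga3*, *Itga6*, *Itga5* and *Itga7*. No beta chain passed both thresholds and no chain was higher past them. A gene passed at an adjusted p-value under 0.05 (limma, Benjamini-Hochberg over all tested genes) and a fold change of at least 1.5 on the scale of log2(value + 1). Of all tested genes, 2.72% passed as lower and 1.28% as higher with P+B, and 8 of the 10 chains reached the mean level of 5 needed for testing. *Itga2* and *Itgb3* did not reach that mean, and *Itga7* reached it only because of its DMSO level.

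*Itga3* (chr11:95044474-95076801, minus strand, GRCm38) encodes the alpha chain of a laminin receptor. Its level was 61 and 75 in DMSO, 35 and 40 in PFI-3, 36 and 39 in BI-9564, and 18 and 16 in P+B. The groups did not overlap between DMSO, either single compound and P+B, and the libraries of both single compounds lay together between the other two. The P+B to DMSO difference was −1.93 in log2 (standard error 0.149, 95% interval −2.28 to −1.59, limma adjusted p = 0.001), or 0.262 times the DMSO level. Of the 10222 tested genes, 47 had a lower log2 fold change.

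*Itga6* (chr2:71745616-71858416, plus strand) encodes the alpha chain of laminin receptors with either the *Itgb1* or the *Itgb4* chain. Its level was 201 and 177 in DMSO, 147 and 130 in PFI-3, 134 and 127 in BI-9564, and 76 and 70 in P+B. Both P+B libraries were below all 6 others, and the libraries of PFI-3 and BI-9564 overlapped. The log2 difference with P+B was −1.36 (standard error 0.107, 95% interval −1.60 to −1.11, limma adjusted p = 0.001). On the scale of value + 1 that is 0.390 times the DMSO level. The annotation places 4 other genes within its span, and reads from overlapping genes may not be separable.

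*Itga5* (chr15:103344286-103366763, minus strand) encodes the alpha chain of the main fibronectin receptor. Its level was 71 and 94 in DMSO, 54 and 76 in PFI-3, 42 and 54 in BI-9564, and 32 and 38 in P+B. The PFI-3 libraries overlapped those of DMSO, while the BI-9564 and P+B libraries were below them. The log2 difference with P+B was −1.20 (standard error 0.212, 95% interval −1.69 to −0.72, limma adjusted p = 0.0198). On the scale of value + 1 that is 0.434 times the DMSO level. Replicate 2 was higher than replicate 1 in 4 of 4 groups, as it also was for *Jun*, while for *Itga6* it was lower in 4 of 4.

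*Itga7* (chr10:128933818-128958282, plus strand) encodes the alpha chain of a laminin receptor known best from muscle. Its level was low throughout, with 9 and 13 in DMSO, 7 and 4 in PFI-3, 5 and 5 in BI-9564, and 2 and 2 in P+B. The P+B libraries were again below all others. The log2 difference with P+B was −1.98 (standard error 0.351, 95% interval −2.79 to −1.17, limma adjusted p = 0.0203). *Itga7* reached the mean level of 5 only through DMSO, the group it was then compared with, so this p-value is not free of the filter. The limma adjusted p was 0.0256 with a minimum mean of 1 and 0.0507 without a filter, which misses the threshold. At such values the removed decimals matter. The ratio of the P+B to the DMSO mean, without the added 1, was 0.182 as deposited. It could lie between 0.167 and 0.273 if the decimals had been dropped. The gene overlaps *Mettl7b* on the other strand, and the sources used here do not say whether counting used the strand.

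The calls of *Itga3* and *Itga6* held when any 1 library was left out, with adjusted p-values of at most 0.0248 (limma). With only the 4 DMSO and P+B libraries in the fit both were lost (limma adjusted p = 0.10), and 0 of the 10222 tested genes were called. Those of *Itga5* and *Itga7* were lost without any 1 of the 4 DMSO and P+B libraries. Without DMSO replicate 1, DMSO replicate 2, P+B replicate 1 and P+B replicate 2 in turn, the adjusted p-value of *Itga5* was 0.0699, 0.131, 0.127 and 0.109, and that of *Itga7* was 0.0818, 0.131, 0.0907 and 0.111. In these refits the log2 difference stayed between −1.40 and −1.01 for *Itga5* and between −2.22 and −1.74 for *Itga7*. All 8 libraries were also fitted with the replicate number as a block. The limma adjusted p was then 0.000696 for *Itga5* (standard error 0.0993) and 0.0135 for *Itga7* (standard error 0.351).

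*Itgav* (chr2:83724397-83806916, plus strand), the alpha chain of the RGD-binding vitronectin and fibronectin receptors, differed less. Its level was 43 and 51 in DMSO, 43 and 36 in PFI-3, 35 and 43 in BI-9564, and 37 and 36 in P+B. Only the P+B libraries lay below both DMSO libraries. The log2 difference of −0.35 (95% interval −0.71 to 0.00, limma adjusted p = 0.227) did not pass, and a fall of the size seen for *Itga3* or *Itga6* lies outside its interval.

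**Figure D1:**
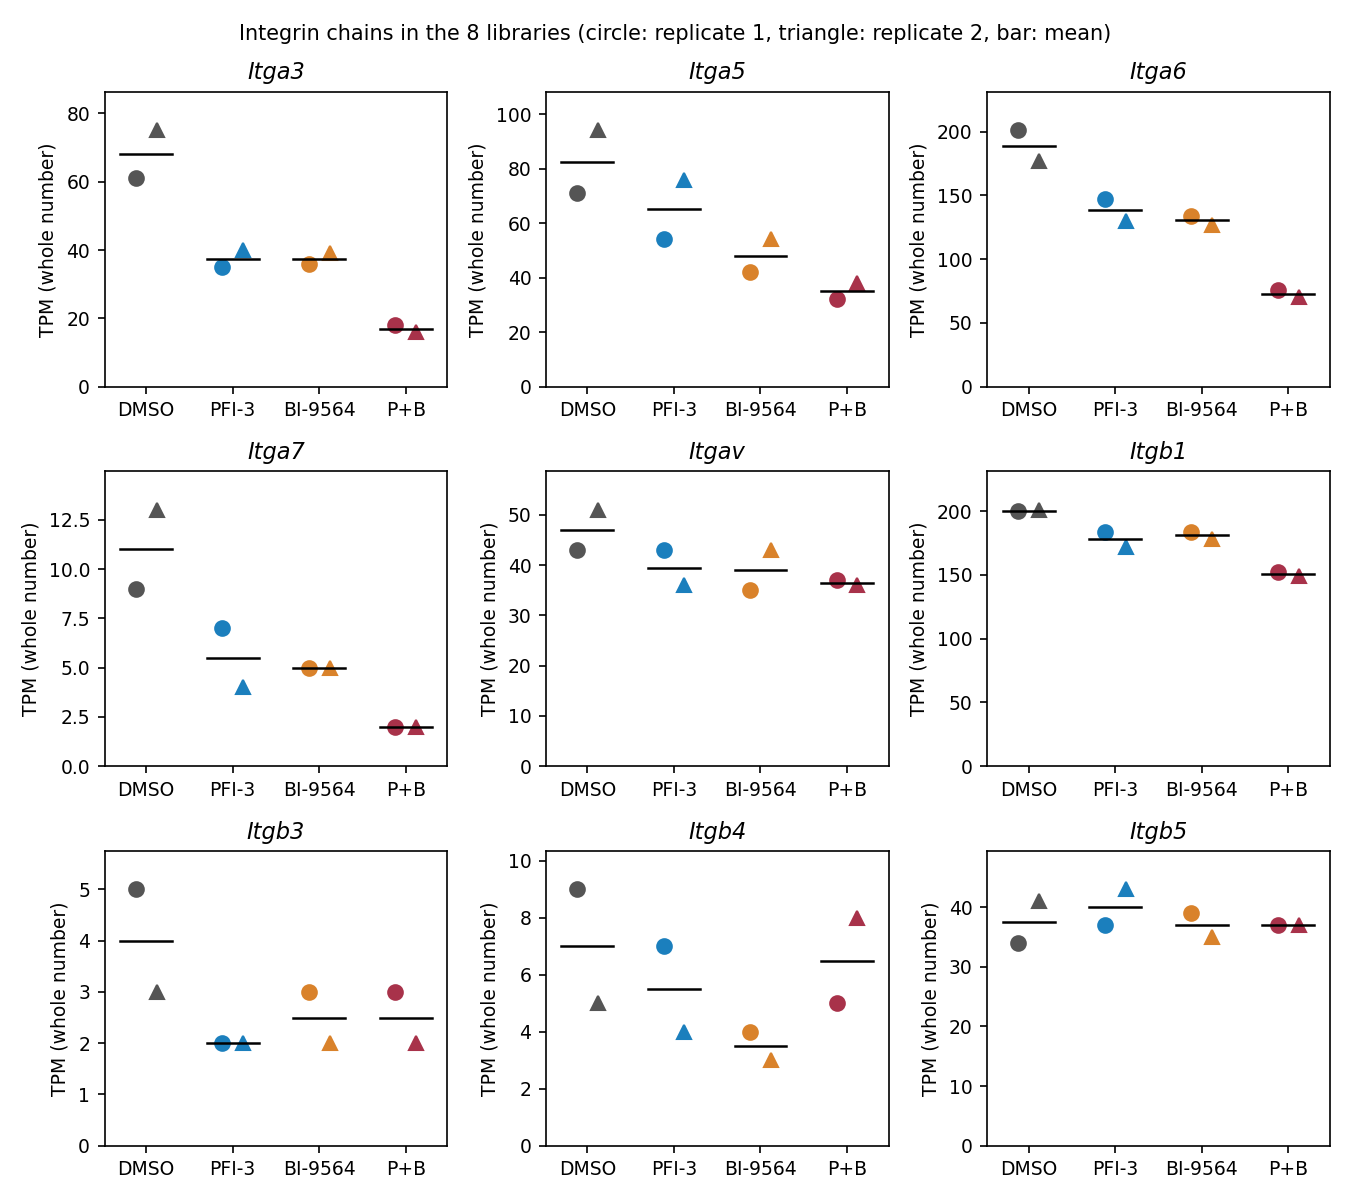
TPM (whole numbers, linear axes from 0) of the 9 detected integrin chains in the 8 libraries, by treatment; circles are replicate 1, triangles replicate 2 and bars the mean of the 2 libraries. *Itga3* steps down from 61 and 75 in DMSO to 18 and 16 in P+B with the single compounds between, while *Itgb5* stays between 34 and 43.

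Among the beta chains, *Itgb1* (chr8:128685654-128733200, plus strand), the common partner of the alpha chains above, was the most abundant. Its level was 200 and 201 in DMSO, 184 and 172 in PFI-3, 184 and 178 in BI-9564, and 152 and 149 in P+B. Each treated group lay below DMSO, and the P+B libraries were the lowest. The log2 difference with P+B was −0.41 (standard error 0.0787, 95% interval −0.59 to −0.23, limma adjusted p = 0.0266). At 0.752 times the DMSO level on the scale of value + 1, it passed the p-value threshold but not the fold threshold.

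*Itgb5* (chr16:33829665-33949338, plus strand), a partner of *Itgav* in a vitronectin receptor, had 34 and 41 in DMSO, 37 and 43 in PFI-3, 39 and 35 in BI-9564, and 37 and 37 in P+B. All groups overlapped DMSO. Its log2 difference with P+B was −0.01 (95% interval −0.34 to 0.31, limma adjusted p = 0.971), an interval that does not reach a change of 1.5 times.

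*Itgb4* (chr11:115974709-116008412, plus strand), the partner of *Itga6* in hemidesmosomes, was low and scattered, with 9 and 5 in DMSO, 7 and 4 in PFI-3, 4 and 3 in BI-9564, and 5 and 8 in P+B. The P+B libraries overlapped those of DMSO. The log2 difference with P+B was −0.08, with a 95% interval from −1.01 to 0.85 (limma adjusted p = 0.935), so a change of 1.5 times in either direction would not have been detectable. *Itgb3* (chr11:104608000-104670476, plus strand), another partner of *Itgav*, had 5 and 3 in DMSO and between 2 and 3 in the 6 other libraries. It was below the filter, and without a filter its log2 difference with P+B was −0.50 (limma adjusted p = 0.496 over 17525 genes).

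All 8 tested chains had a P+B log2 fold change below 0, with a median of −0.81, beside a median of 0.06 over all tested genes. In 6 of the 8 both P+B libraries were below both DMSO libraries, as was the case for 18.9% of all tested genes. The chains were chosen with earlier results known, so these counts describe them only.

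**Figure D2:**
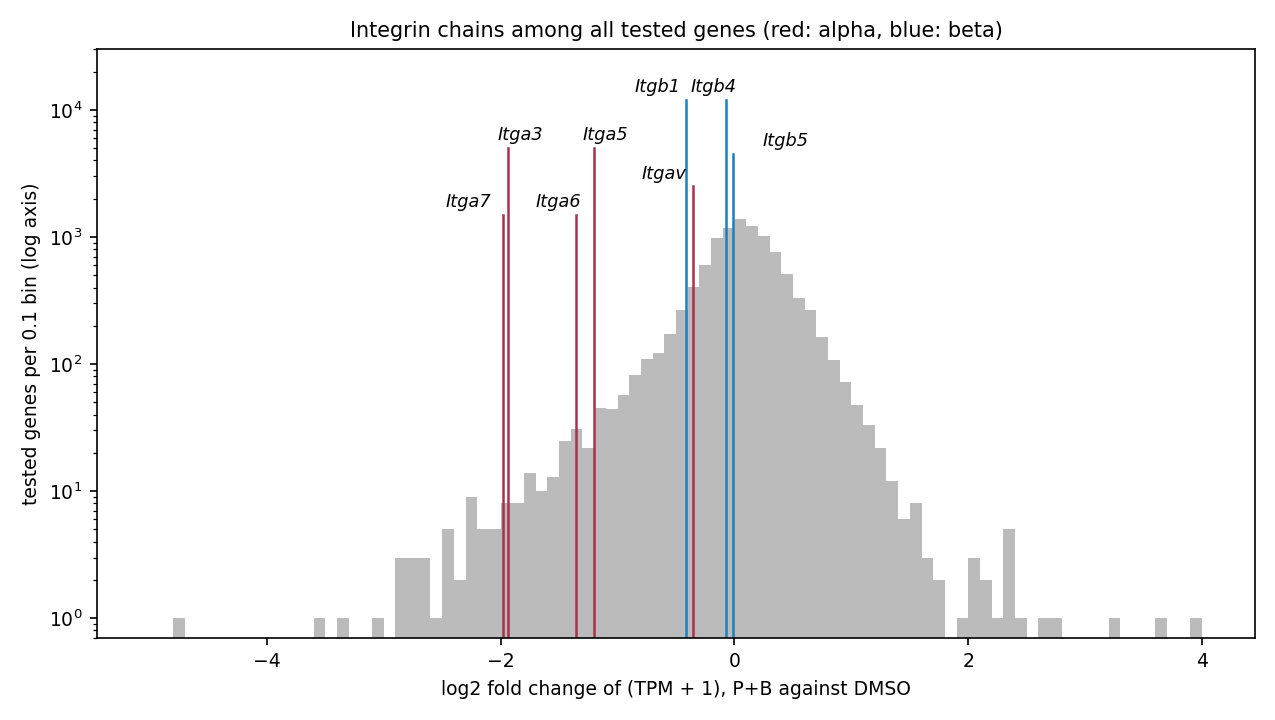
Histogram of the log2 fold change of (TPM + 1) with P+B against DMSO for all 10222 tested genes, in bins of 0.1 with gene numbers on a log axis; red lines are alpha chains and blue lines beta chains, and line height has no meaning. *Itga7*, *Itga3*, *Itga6* and *Itga5* lie in the lower tail, at −1.98 to −1.20, and *Itgb4* and *Itgb5* near 0.

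With either compound alone no chain passed the thresholds, and among the 8 tested chains the same 4 alpha chains had the most negative values with PFI-3. *Itgb3*, below the filter at 5 and 3 in DMSO and 2 and 2 in PFI-3, had −0.71 in the fit without a filter (limma adjusted p = 0.797). With PFI-3, 0 of the 8 tested chains and 0% of all tested genes passed as lower, and 3 chains had an unadjusted limma p under 0.05, as 6.79% of all tested genes did. The log2 difference was −0.84 for *Itga3* (95% interval −1.18 to −0.50, limma adjusted p = 0.493) and −0.45 for *Itga6* (−0.69 to −0.20, adjusted p = 0.506). It was −0.90 for *Itga7* (−1.71 to −0.10, adjusted p = 0.669) and −0.35 for *Itga5* (−0.83 to 0.14, adjusted p = 0.854). *Itgb1* had −0.17 and *Itgb5* 0.09. In 4 of the 8 chains both PFI-3 libraries lay below both DMSO libraries, and 12.8% of all tested genes did so.

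With BI-9564, 0 of the 8 chains passed, as 0.0783% of all tested genes did in the lower direction, and 4 chains had an unadjusted limma p under 0.05 beside 14.9% of all tested genes. The log2 difference was −0.84 for *Itga3* (95% interval −1.18 to −0.49, limma adjusted p = 0.0799), −0.77 for *Itga5* (−1.25 to −0.28, adjusted p = 0.177) and −0.53 for *Itga6* (−0.77 to −0.28, adjusted p = 0.115). It was −0.98 for *Itga7* (−1.79 to −0.17, adjusted p = 0.267). *Itgb4*, at 4 and 3 against 9 and 5, had −0.79 with a wide interval (−1.72 to 0.14). In 6 of the 8 chains both BI-9564 libraries were below both DMSO libraries, beside 18.3% of all tested genes. With the replicate number as a block, *Itga3* and *Itga5* passed as lower (limma adjusted p = 0.0318 and 0.0215), where 1.04% of all tested genes did.

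P+B was then set against each compound alone. Against PFI-3, *Itga3* (log2 difference −1.10, 95% interval −1.44 to −0.75, limma adjusted p = 0.0176) and *Itga6* (−0.91, −1.16 to −0.67, adjusted p = 0.0111) fell, with 1.05% of all tested genes lower. With the replicate block *Itga5* passed too (−0.86, limma adjusted p = 0.00581), where 2.4% of all tested genes did, while without it *Itga5* had an adjusted p of 0.102. Both calls were lost without any 1 of the PFI-3 and P+B libraries (limma adjusted p from 0.0637 to 0.145), and *Itga3* was lost without BI-9564 replicate 2 (adjusted p = 0.0509), which takes part only through the shared estimate of the spread. Against BI-9564, *Itga3* (−1.10, −1.44 to −0.76, limma adjusted p = 0.0402) and *Itga6* (−0.83, −1.08 to −0.59, adjusted p = 0.0361) fell, with 0.196% of all tested genes lower. These calls were lost when any 1 of the 8 libraries was left out, with adjusted p-values from 0.118 to 0.400 for *Itga3* and 0.118 to 0.389 for *Itga6*. *Itga7* had −1.08 against PFI-3 (limma adjusted p = 0.184) and did not pass against either compound (adjusted p = 0.502 against BI-9564).

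BI-9564 and PFI-3 were compared directly, and 0 of the 8 chains passed, beside 0.0783% of all tested genes lower. None had an unadjusted limma p under 0.05, beside 14.2% of all tested genes that did. The difference was 0.00 for *Itga3* (95% interval −0.34 to 0.34) and −0.08 for *Itga6*, while for *Itga5* it was −0.42 (−0.91 to 0.07), an interval that holds a further fall with BI-9564. The P+B value was also compared with the sum of the single-compound log2 differences, and 0 of 8 chains and 0% of all tested genes passed as lower. For *Itga3* the departure from the sum was −0.26 (95% interval −0.74 to 0.22). For *Itga6* it was −0.38 (−0.73 to −0.04), which passed before the correction for all tested genes and failed it (limma adjusted p = 1). P+B, PFI-3 and BI-9564 share the DMSO libraries, so their differences from DMSO are not independent.

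**Figure D3:**
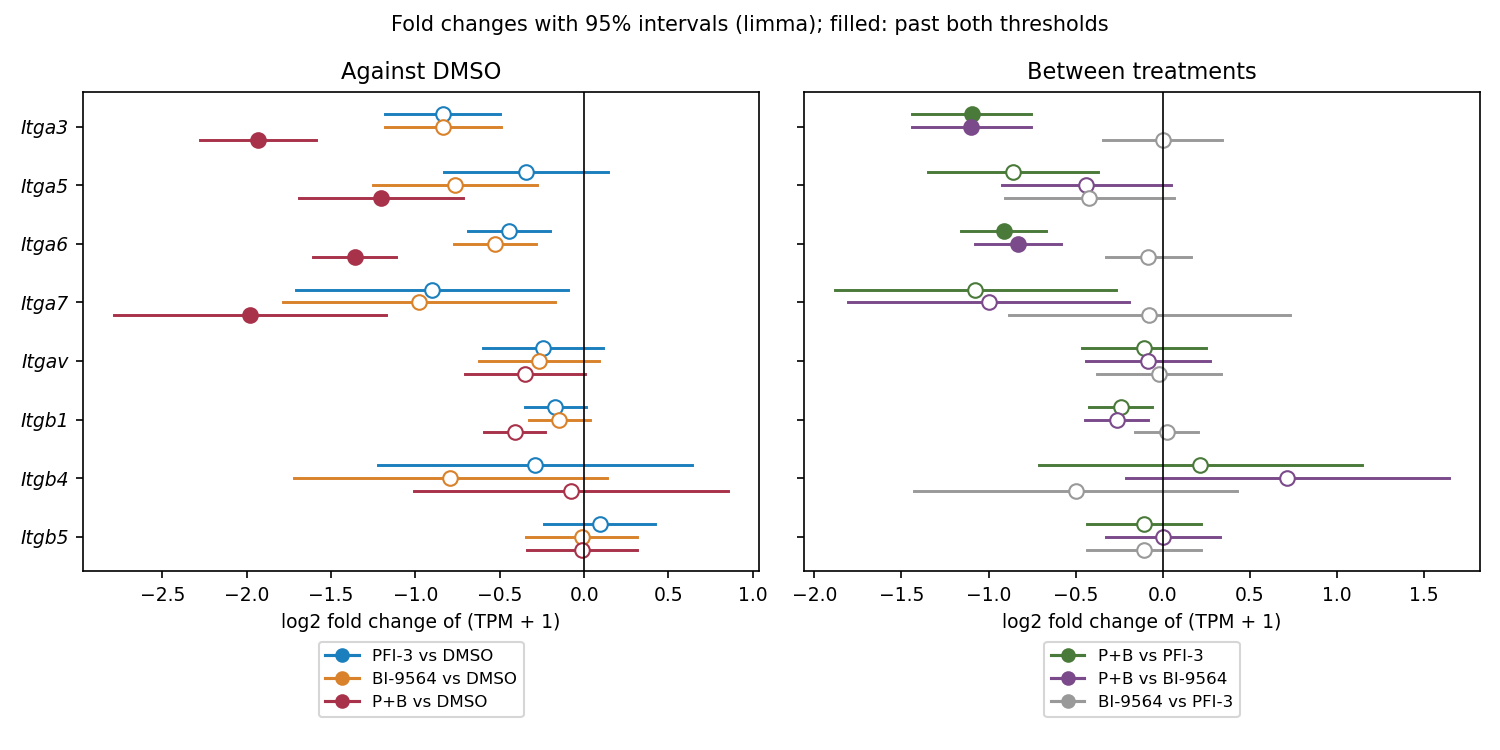
Log2 fold change of (TPM + 1) with 95% limma intervals for the 8 tested chains, on the left for each treatment against DMSO and on the right between treatments; filled points passed both thresholds. The P+B points of *Itga3*, *Itga5*, *Itga6* and *Itga7* are filled against DMSO, and only *Itga3* and *Itga6* are filled against the single compounds.

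The summed level of the 6 alpha chains was lowest with P+B, without overlap with any other group. It was 385 and 410 in DMSO, 286 and 286 in PFI-3, 252 and 268 in BI-9564, and 165 and 162 in P+B. Over the 4 beta chains it was 248 and 250 in DMSO, 230 and 221 in PFI-3, 230 and 218 in BI-9564, and 197 and 196 in P+B. The ratio of alpha to beta transcripts, a measure chosen after these values were seen, was 1.60 ± 0.0619 (SD, n = 2) in DMSO, 1.27 ± 0.0358 in PFI-3, 1.16 ± 0.0945 in BI-9564 and 0.832 ± 0.0078 in P+B. Alpha transcripts exceeded beta transcripts in the 6 libraries without P+B and were fewer in the 2 with P+B. The ratio concerns RNA, not protein pairs.

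Of the alpha total, *Itga6* made up 47.7% ± 6.39 (SD, n = 2) in DMSO and 44.6% ± 2.02 in P+B, and its libraries overlapped. *Itga3* made up 17.1% ± 1.73 and 10.4% ± 0.730. *Itgav*, whose level differed least among the detected alpha chains, made up 11.8% ± 0.898 with DMSO and 22.3% ± 0.143 with P+B, 10.5 percentage points more. With 2 libraries against 2, the smallest p that a two-sided exact permutation test allows is 0.33, which was the value for *Itga3* and *Itgav*, so these shares cannot reach 0.05. Of the beta total, *Itgb1* made up 80.5% ± 0.173 with DMSO and 76.6% ± 0.804 with P+B, and *Itgb5* 15.1% ± 1.90 and 18.8% ± 0.0678.

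**Figure D4:**
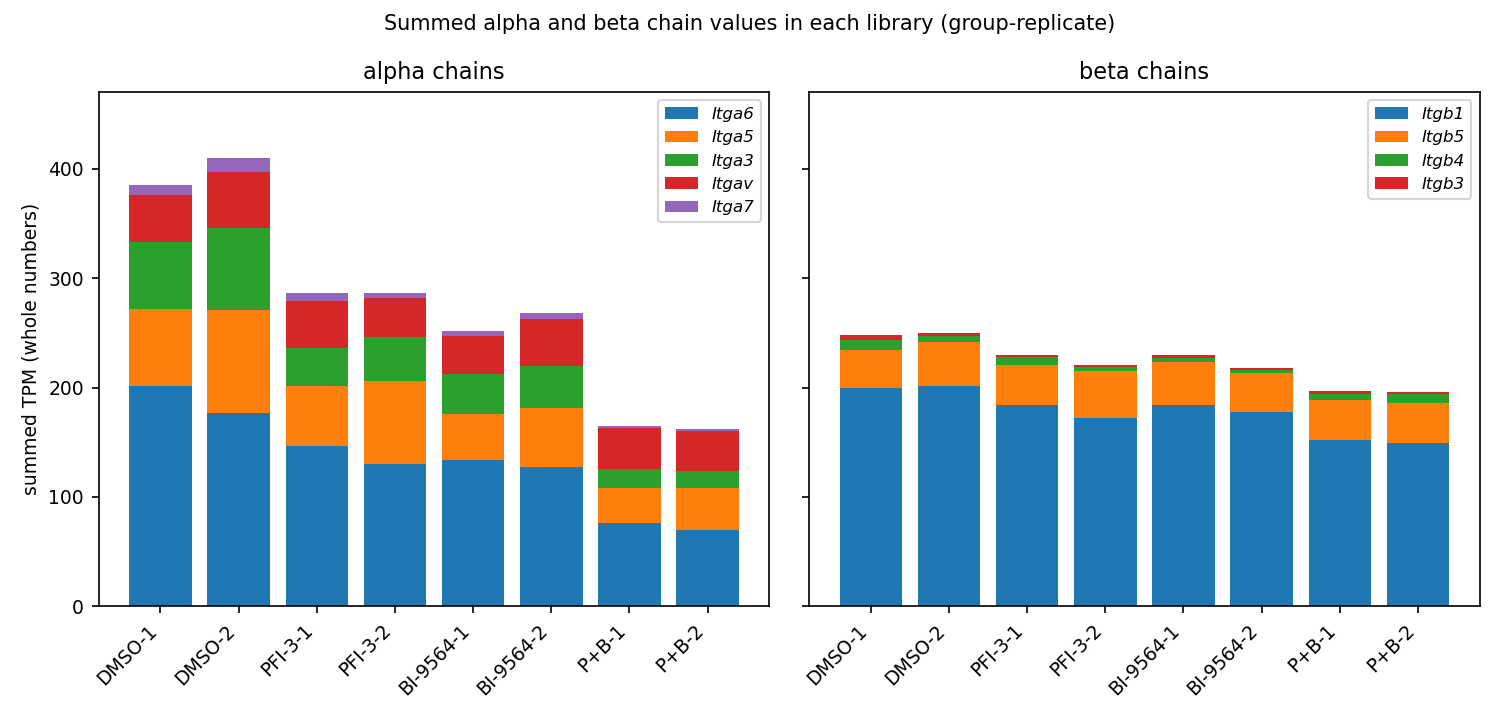
Stacked bars of TPM (whole numbers, axis from 0) for the alpha chains (left) and beta chains (right) in each of the 8 libraries, named by group and replicate. The alpha bars drop from 385 and 410 in DMSO to 165 and 162 in P+B, the beta bars from 248 and 250 to 197 and 196.

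Across the 8 libraries, *Itga3*, *Itga5*, *Itga6*, *Itga7* and *Itgb1* moved together, with Pearson's r from 0.774 to 0.983 over their 10 pairs. The 5 pairs of *Itgav* with these chains had r from 0.640 to 0.823. The 13 pairs that hold *Itgb4* or *Itgb5* had r from −0.381 to 0.352. These values describe 8 libraries that share the treatments. The genes whose profile over the 8 libraries was most like that of *Itga3* were *Capn2* (r = 0.994), *Wdr1* (0.991), *Cldn6* (0.990), *Ddr1* (0.988) and *Mapk6* (0.988). *Capn2*, a calcium-dependent protease, had 30 and 35 in DMSO and 9 and 7 in P+B, and *Cldn6*, a tight junction protein, had 103 and 143 in DMSO. *Ddr1*, a collagen receptor that is no integrin, had a P+B log2 fold change of −0.55. Most like the mean standardised profile of the tested chains were *Snai3* (r = 0.978), *Mbnl2* (0.976), *Myadm* (0.976), *Glrx* (0.973) and *Wdr55* (0.973).

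The 17 other integrin chains in the table were nearly silent. Only *Itgal*, the alpha chain of a leukocyte integrin, passed the filter, with 7 and 10 in DMSO and 6 and 9 in P+B (log2 difference −0.17, limma adjusted p = 0.781).

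Of 19 ligand genes found, 14 were tested, 2 fell with P+B and 12 of 14 were below 0 (median −0.28). Of all 10222 tested genes, 2.72% were called lower and 4265 were below 0. Of these, *Lama3*, a laminin chain, is described here. *Lama3* had 24 and 31 in DMSO, 17 and 20 in PFI-3, 15 and 21 in BI-9564, and 8 and 7 in P+B (−1.74, limma adjusted p = 0.00517). Its P+B libraries were the lowest, without overlap with any other group.

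Of 18 tested adaptors and kinases, 3 fell, none rose, 12 were below 0 and the median was −0.25, beside the same 2.72% of all tested genes called lower. *Tns1*, a tensin that ties integrins to actin, had 31 and 39 in DMSO and 9 and 10 in P+B (−1.77, limma adjusted p = 0.00282). *Tns3*, a related tensin, had 42 and 44 in DMSO and 22 and 26 in P+B (−0.82, adjusted p = 0.0185), and the kinase *Src* had 63 and 60 against 33 and 36 (−0.82, adjusted p = 0.0103). With PFI-3 alone *Tns1* had 31 and 30, *Tns3* 43 and 46, and *Src* 59 and 51. With BI-9564 alone *Tns1* had 22 and 17, below DMSO and above P+B. *Tns3*, at 28 and 24, overlapped P+B with BI-9564 alone, and *Src*, at 37 and 40, lay close above it.

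Of 14 tested activators and inhibitors, none passed (limma, 3 at an unadjusted p under 0.05) and the median was −0.14. *Tln1*, which encodes talin, had 80 and 78 in DMSO and 70 and 66 in P+B (log2 difference −0.21, 95% interval −0.45 to 0.02). Of 8 tested lateral partners, 1 fell, where 2.72% of all tested genes were called lower and 1.28% higher. It was *Plaur*, the urokinase receptor, with 304 and 255 in DMSO, 220 and 216 in PFI-3, and 198 and 198 in BI-9564. With P+B *Plaur* had 107 and 92 (−1.48, limma adjusted p = 0.001). Of 9 tested trafficking genes, *Snx17*, which returns integrins to the surface, fell from 116 and 111 to 70 and 67 (−0.72, limma adjusted p = 0.00526), with 109 and 111 in PFI-3 and 87 and 81 in BI-9564. *Rab21*, a small GTPase that takes integrins into the cell, rose from 17 and 14 to 28 and 29 (0.84, limma adjusted p = 0.0261), with 17 and 19 in PFI-3 and 27 and 24 in BI-9564, the latter close to P+B. With PFI-3 or BI-9564 alone, none of the genes in these lists passed the thresholds (limma). At an unadjusted p under 0.05 there were 3 ligands, 2 adaptors or kinases and 1 lateral partner with PFI-3, beside 6.79% of all tested genes. With BI-9564 there were 4 ligands, 3 adaptors or kinases, 3 activators or inhibitors, 2 lateral partners and 4 trafficking genes, beside 14.9% of all tested genes. With P+B, an unadjusted limma p under 0.05 was reached by 9 of 18 adaptors and kinases (50%), 5 of 14 ligands (35.7%), 5 of 9 trafficking genes (55.6%), 2 of 8 lateral partners (25%) and 3 of 14 activators and inhibitors (21.4%), beside 22.6% of all tested genes.

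*Jun* itself, which doxycycline induces, was lower with P+B than with DMSO in both same-numbered pairs of libraries and did not pass both thresholds. Its level was 1970 and 2877 in DMSO, 1570 and 2227 in PFI-3, 2071 and 3011 in BI-9564, and 1569 and 2159 in P+B. The log2 difference with P+B was −0.37 (95% interval −0.96 to 0.22, limma adjusted p = 0.437), and with the replicate number as a block the same difference had a standard error of 0.0378 and a limma adjusted p of 0.00156, at 0.773 times the DMSO level. With PFI-3 it was −0.35 (limma adjusted p = 0.876, or 0.116 with the block), and with BI-9564 0.07. The *Jun* level thus moved with P+B in the paired fit, and its part in the integrin values was not tested. The 10 ES cell markers had 5 log2 differences below 0 and 5 above 0 with P+B (median −0.02). With PFI-3, 10 of 10 were above 0 (median 0.42), and none passed (limma, 4 at an unadjusted p under 0.05). With BI-9564, 8 of 10 were below 0 (median −0.16), and none passed (limma, 2 at an unadjusted p under 0.05). *Tdgf1*, a co-receptor of Nodal, was the 1 marker called with P+B (−0.93, limma adjusted p = 0.00916). Its level was 163 and 156 in DMSO, 221 and 196 in PFI-3, 101 and 76 in BI-9564, and 82 and 84 in P+B. The BI-9564 and P+B libraries of *Tdgf1* overlapped. On the other side *Klf2*, a transcription factor of naive ES cells, had 65 and 52 in DMSO and 152 and 94 in P+B (1.03, limma adjusted p = 0.0568).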

How the data were processed

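RNA-seq of 8 libraries in 4 groups of 2 was analysed. The libraries were made with a VAHTS mRNA-seq kit and sequenced on a NextSeq500. The submitters' processing notes name bcl2fastq, Bowtie2 2.2.5, RSEM 1.3.0 and mm10, and the annotation is not given in the sources used here. The authors deposited a table of 50600 gene rows in which each value is a score, namely TPM that they made whole numbers. All values were whole, 33075 rows were at 0 in all libraries, and depth is unknown. The authors used DESeq2, which needs raw counts and was not run here.

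The 10222 genes whose mean reached 5 were fitted on the scale of log2(value + 1), using limma 3.58.1 (R 4.3.3) and a trend on the mean. All 8 libraries were fitted together, with 4 residual degrees of freedom before moderation. Benjamini-Hochberg adjustment was made per comparison, and a gene was called at an adjusted p under 0.05 and a fold of at least 1.5. The procedure was tested on simulated data, drawn without differences shared by replicate number. Of 100 genes changed by 2 in log2, 97 were called, and of 100 changed by 1, 64 were called. Of 10022 unchanged genes, 5 were called. The values were drawn as normal in log2, with the spread of each gene moderated as in the fit. The simulated data thus largely met the assumptions of the fit, so these counts do not give its error rate in the real libraries. Shares of chains were compared with two-sided exact permutation tests. Gene positions are from GENCODE M21 on GRCm38, and promoter windows from RefSeq on GRCm38.p6.

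Groups share replicate numbers. The replicate differences of the groups correlated across genes with Pearson's r from 0.143 to 0.236 in all 6 pairs of groups, and the samples were treated as paired by number in an added fit with the number as a block.

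The integrin chains and the gene lists were chosen with earlier results of these data known. The genes named are the 10 chains, *Jun*, at most 4 called genes of each list with the largest P+B change, and the 5 genes most like *Itga3* and most like the mean chain profile by Pearson's r. *Itgal*, *Tln1*, *Sparc*, *Tdgf1* and *Klf2* were named after their values were seen. Of 21 ligand names 19 were found, because the list holds alias pairs. A further called ligand gene is not reported here.

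As alternatives, each library was left out in turn, the replicate number was added as a block, the pseudocount was set to 0.5 or 5, and the minimum mean was set to 1, to 20 or dropped. Quantile normalization, median centring, a fit without a trend, separate fits for the libraries of each comparison, calls without the fold threshold and calls at an adjusted p under 0.01 were also tried. A sum over all integrin chains was an alternative for the shares, and was added for the alpha to beta ratio after the data were seen, as was the block for *Jun*.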

Additional observations from a re-analysis of the deposited data

How the results depend on the processing

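With the replicate number as a block, the number of called chains was 2 in place of 0 for BI-9564 against DMSO and 3 in place of 2 for P+B against PFI-3, and the pairing changed no other call of a chain. Among all tested genes the lower calls were then 106 in place of 8 and 245 in place of 107. For P+B against DMSO, 4 chains were called, and the count was 2 without a filter on low values, 2 at an adjusted p under 0.01, and 0 when only the 4 libraries compared were fitted (limma adjusted p = 0.10 to 0.122 for the 4 chains). Calls as lower over all genes numbered 278 of 10222 in the main fit. There were 156 of 17525 without a filter, 112 at an adjusted p under 0.01 and 0 with only those 4 libraries. Without a filter *Itga5* and *Itga7* missed the threshold (limma adjusted p = 0.0749 and 0.0507). For P+B against PFI-3, 2 chains were called, and the count was 0 without a filter, 0 without a trend, 0 with only the libraries compared and 0 at an adjusted p under 0.01. Over all tested genes, 107 were called lower in the main fit, and 5, 4, 0 and 8 under these settings in turn. For P+B against BI-9564, 2 chains were called, and the count was 1 with a pseudocount of 5 and 0 with a mean of at least 1, without a filter, without a trend, with only the libraries compared and at an adjusted p under 0.01. Here 20 of all tested genes were called lower in the main fit, and 18, 2, 0, 1, 0 and 1 under these settings in turn. The cause of these changes was not tested, beyond the fewer samples or the stricter threshold. Leaving out 1 library at a time gave 2 to 4 called chains for P+B against DMSO, 0 to 2 for P+B against PFI-3, 0 to 0 for P+B against BI-9564 and 0 to 0 for the other comparisons. The library left alone in its group was then assumed to vary like the others.

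The direction reversed only for chains that were not called: with 1 library left out, *Itgb4* with P+B ranged from −0.44 (without DMSO replicate 2) to 0.29 (without DMSO replicate 1), being 0.22 without P+B replicate 1, and *Itgb5* ranged from −0.14 (without DMSO replicate 1) to 0.12 (without DMSO replicate 2). *Itgb1* was called with no fold threshold. The share of *Itgav* was 9.51 percentage points higher with P+B when all integrin chains were summed, against 10.5, and the alpha to beta ratio then was 1.62 with DMSO and 0.879 with P+B. In the 3 comparisons with called chains, 30 of 60 alternatives left the count within 1.5 times and 30 moved it further. In the 4 without, 78 of 79 left it at 0, which says little of stability. The P+B median of all genes was 0.06 and moved to 0.04 with quantile normalization and −0.03 with median centring. Depth is unknown, and whole-number TPM limits what can be said of *Itga7*, *Itgb3* and *Itgb4*.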
